A study of Saccharomyces cerevisiae with 36 samples.

Results

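Yeast N-linked glycans are enlarged in the Golgi into mannan, a long mannose polymer carried by cell wall and secreted proteins. Och1 starts the outer chain, 2 membrane complexes named M-Pol I and M-Pol II lengthen its backbone, Mnn2 and Mnn5 add side branches, Mnn4 is needed for the phosphate-linked mannose that gives the wall its negative charge, and Mnn1 caps branches with a terminal alpha-1,3-linked mannose on N-linked and O-linked chains. The 10 genes described here are these mannosyltransferases and their partners: MNN1 (YER001W), MNN2 (YBR015C), MNN4 (YKL201C), MNN5 (YJL186W), MNN9 (YPL050C), MNN10 (YDR245W), MNN11 (YJL183W), HOC1 (YJR075W), VAN1 (YML115C) and OCH1 (YGL038C). They were listed by symbol, and all 10 were measured, each by 1 probe set, out of 5449 genes. The list and its central comparison, MNN1 against the other 9 genes, were chosen by the measured differences between IC20 and control arrays, so those differences are given as a description and no p-value is attached to them.

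RNA was measured on 36 Affymetrix arrays from BY4741 cultures; this laboratory yeast is haploid, has mating type a, lacks URA3, LEU2 and MET17 and carries a partial deletion of HIS3. Growing cells in minimal medium spent 2 h with a single pesticide at its IC20, a dose meant to be equally toxic across pesticides, or without it, and each of the 12 groups had 3 independent biological replicates. The herbicides were alachlor at 200 mg/L, S-metolachlor at 220 mg/L, diuron at 80 mg/L and MCPA-ME, a methyl ester, at 115 mg/L. The insecticide carbofuran was given at 160 mg/L and the fungicide pyrimethanil at 20 mg/L. Each pesticide had its own control group, run together with it in the same medium without the pesticide. The alachlor IC20 titles carry a "(2)" that the labels do not explain.

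Values are the deposited probe set intensities on a linear scale, and changes are differences of mean log2 intensity, IC20 minus control, with the standard error from limma's fit of all arrays. A gene is called when limma's p, adjusted over the 5449 genes by Benjamini-Hochberg, is under 0.05. Array medians ran from 1319.6 to 1511.4 units, and no value of the 10 genes came near the floor of 32 units, the lowest being 474. Group means of the a-type genes MFA1, MFA2 and STE2 were at least 9270 units. The a-type genes STE6 and BAR1 had lower group means, of 3140 to 8240 and 1150 to 8530 units. Group means of URA3 were at most 17.9, of MET17 at most 38.3, of LEU2 at most 142 and of HIS3 4700 to 9960. Those of the alpha-type gene MF(ALPHA)1 were at most 53.3. Of the other alpha-type genes, MF(ALPHA)2 had group means of 75.7 to 180 units, STE3 of 74.4 to 218 units and SAG1 of 532 to 1590 units. The arrays farthest from their group means were MCPA-ME IC20 array 2, with a root mean square deviation of 0.383 on the log2 scale, and carbofuran IC20 array 1, with 0.259. An array value is a share of the labelled RNA, so fewer cells at the stage that uses a gene and less of its RNA per cell cannot be told apart.

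MNN1, which encodes the capping alpha-1,3-mannosyltransferase, was lower at the IC20 of every pesticide. It had 1389, 1485 and 1628 units on the alachlor IC20 arrays, against 2493, 2145 and 2640 units on their controls. With carbofuran it had 1581, 1395 and 1385 units, against 1979, 2279 and 2075 units in the carbofuran controls. With diuron it had 1438, 1449 and 1282 units, against 2149, 2050 and 2050 units in the diuron controls. In these 3 experiments every IC20 array lay below every control array. With MCPA-ME it had 1612, 1396 and 1785 units, against 2542, 3097 and 2528 units in the controls. With pyrimethanil it had 1532, 1576 and 1727 units, against 2464, 2076 and 2464 units in the controls. With S-metolachlor it had 1240, 1590 and 1592 units, against 2306, 2503 and 2340 units in the controls. The groups did not overlap in these experiments either, and across the series the highest of the 18 IC20 values, 1785 units, lay below the lowest of the 18 control values, 1979 units.

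The log2 change of MNN1 was -0.69 with alachlor, -0.54 with carbofuran, -0.59 with diuron, -0.77 with MCPA-ME, -0.53 with pyrimethanil and -0.70 with S-metolachlor, each with a standard error of 0.11. These changes equal IC20 levels 30.8% to 41.3% below control. The 6 changes spanned 0.24 on the log2 scale, and the 95% intervals of the smallest (-0.75 to -0.31 with pyrimethanil) and the greatest (-0.99 to -0.55 with MCPA-ME) overlapped. The chloroacetanilide herbicides alachlor and S-metolachlor, given at 200 and 220 mg/L, stood side by side at -0.69 and -0.70; the doses differ, so no comparison was made.

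**Figure D1:**
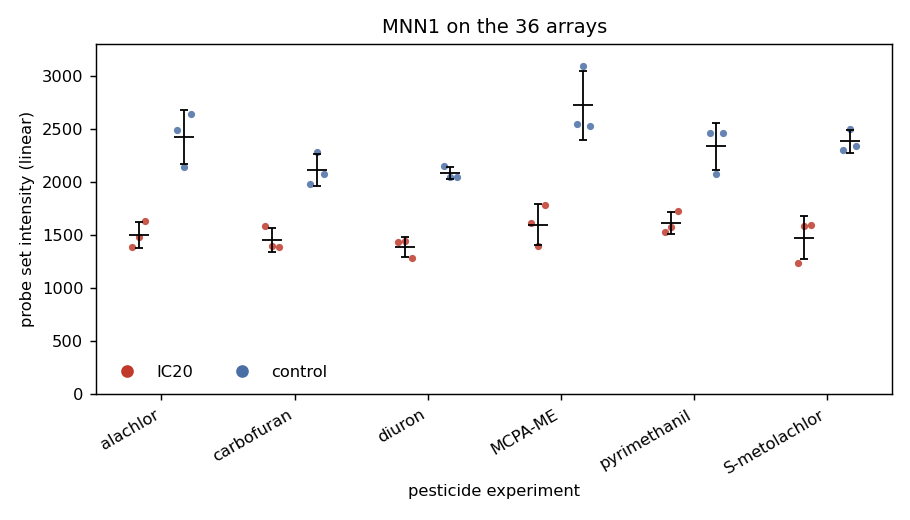
MNN1 probe set intensity (linear, vertical axis) on each of the 36 arrays by pesticide experiment (horizontal axis), IC20 in red and control in blue; points are arrays and black marks the mean ± SD of 3 arrays. All IC20 arrays sit at or below 1785 units and all control arrays at or above 1979 units.

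Ordered by mean, the MNN1 level at the IC20 was lowest with diuron at 1390 ± 93.6 units, then carbofuran at 1454 ± 111, S-metolachlor at 1474 ± 203, alachlor at 1500 ± 120, MCPA-ME at 1598 ± 195 and pyrimethanil at 1612 ± 102 (SD, n = 3 each). Each neighbour in this order overlapped the next. Control means ran from 2083 ± 57.3 units in the diuron experiment to 2722 ± 325 units in the MCPA-ME experiment, again with every neighbour overlapping. Among all 5449 genes, 5 were called lower with all 6 pesticides (0.0918%), and these were MNN1, PAM18, YBL029W, YCL021W-A and YDR124W, the last 4 named after their values were seen. PAM18 encodes a part of the mitochondrial import motor. Within each of the 6 experiments the IC20 arrays lay below their controls for 16 genes (0.294%), and all 18 IC20 arrays lay below all 18 control arrays for 2 genes (0.0367%), MNN1 and YBL029W. MNN1 was proposed for this pattern, so these counts describe it and test nothing.

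In the fit of the 6 MCPA-ME arrays alone MNN1 was not called. With all 18 controls taken as 1 group its change was -0.68 with carbofuran, -0.75 with diuron and -0.55 with MCPA-ME.

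MNN9 and MNN10 also had changes below 0 with all 6 pesticides, though MNN10 with S-metolachlor was 0.01 after median centring and MNN9 with carbofuran 0.07 against the 18 controls as 1 group, and the other 7 genes had changes of both signs. The 54 changes of the 9 genes ran from -0.50 to 0.63 on the log2 scale, 10 were called, 6 lower and 4 higher, and no other member was called with more than 3 pesticides. The MNN1 change lay below that of each of the 9 genes with each of the 6 pesticides, and in 48 of these 54 pairings the log ratio of MNN1 to the other gene was lower on every IC20 array than on every control array. MNN5 with pyrimethanil came closest, with changes differing by 0.03. Of all 5449 genes, 0.551% had a lower change than MNN1 with alachlor, 13% with carbofuran and 1.91% with diuron. The share was 2.72% with MCPA-ME, 4.44% with pyrimethanil and 4.11% with S-metolachlor. Such pairings were not counted for other genes, so the 48 of 54 is a description.

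Set against the mean of the other 9 genes on the same array, MNN1 gave log2 ratios from -1.33 to -0.79 on the 18 IC20 arrays, against -0.71 to -0.02 on the 18 control arrays, without overlap. The size of such a ratio has no meaning between probe sets, but its shift does. The ratio shifted by -0.63 with alachlor, -0.70 with carbofuran, -0.54 with diuron, -0.73 with MCPA-ME, -0.34 with pyrimethanil and -0.53 with S-metolachlor. The smallest shift was with pyrimethanil, where the mean ratio was -0.89 ± 0.09 at the IC20 and -0.55 ± 0.11 in controls (SD, n = 3 each), and there the other 9 genes had a median change of -0.16. With all 18 controls as 1 group the shift was -0.80 with carbofuran, -0.72 with diuron and -0.47 with MCPA-ME.

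**Figure D2:**
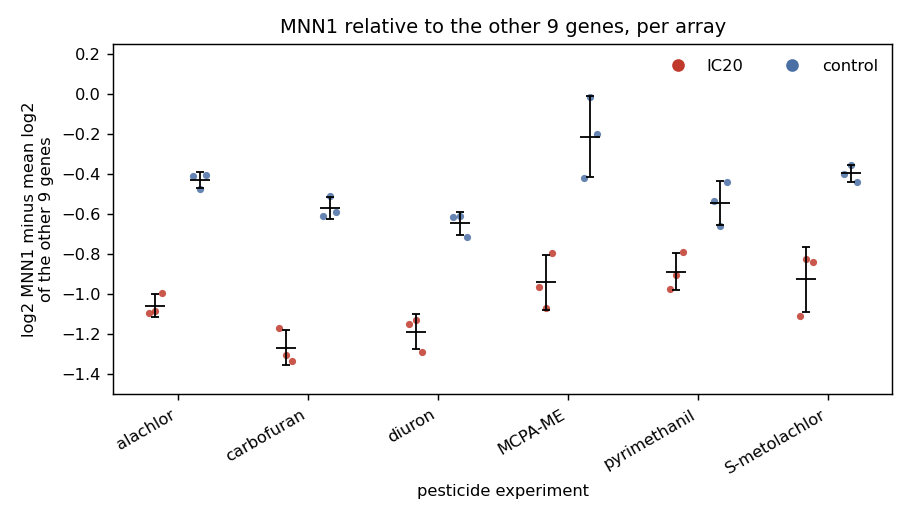
Log2 MNN1 intensity minus the mean log2 intensity of the other 9 genes (vertical axis) on each array by pesticide experiment (horizontal axis), IC20 in red and control in blue, with the mean ± SD of 3 arrays in black. IC20 arrays lie between -1.33 and -0.79 and control arrays between -0.71 and -0.02.

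Counting calls by pesticide, with alachlor 1 of the 10 genes was called lower, MNN1, and none higher, beside 5.03% of all genes called (1.5% lower, 3.52% higher). With carbofuran 3 were called lower, MNN1, MNN9 and MNN10, and 3 higher, MNN4, MNN5 and VAN1, beside 42.2% of all genes (23.7% lower, 18.4% higher). With diuron 2 were called lower, MNN1 and OCH1, beside 14.4% (5.84% lower, 8.52% higher). With MCPA-ME 1 was called lower, MNN1, and 1 higher, MNN4, beside 18.6% (8.61% lower, 9.97% higher). With pyrimethanil 2 were called lower, MNN1 and MNN5, beside 16.1% (9.71% lower, 6.39% higher). With S-metolachlor 3 were called lower, MNN1, MNN5 and VAN1, beside 24.4% (14.4% lower, 10.1% higher). IC20 and control arrays did not overlap for 3 of the 10 genes with alachlor (30.8% of all genes), 9 with carbofuran (49.8%), 7 with diuron (40.2%), 3 with MCPA-ME (18.9%), 5 with pyrimethanil (41.6%) and 7 with S-metolachlor (54.9%). The median change of the 10 genes ran from -0.19 with S-metolachlor to 0.22 with carbofuran, while that of all genes ran from -0.04 with pyrimethanil to 0 with alachlor and diuron. Nothing is read from these shares, because the same contrasts were known when the genes were listed.

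**Figure D3:**
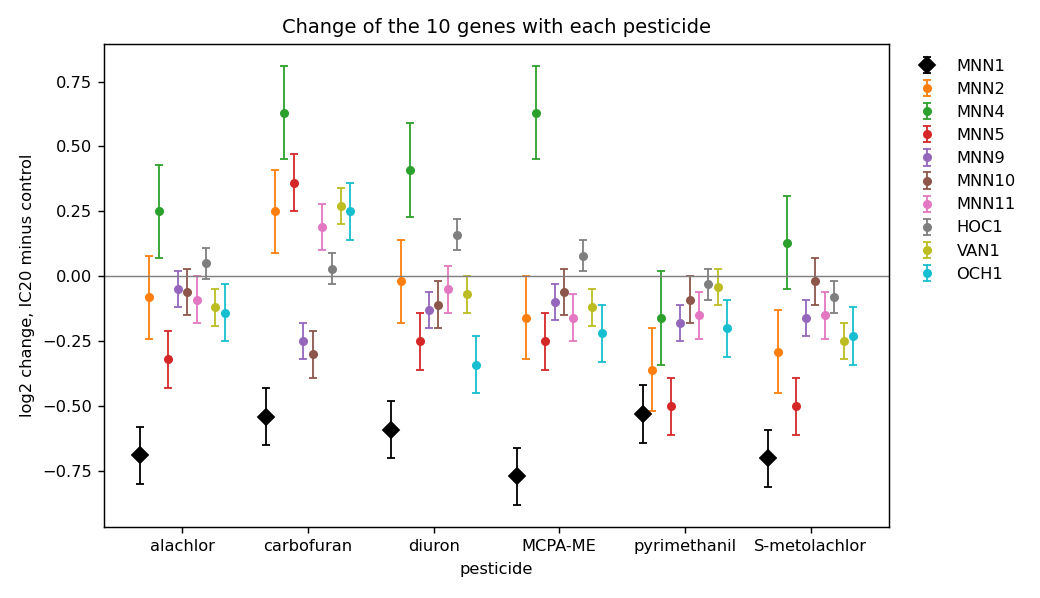
Log2 change, IC20 minus control (vertical axis), of each of the 10 genes with each pesticide (horizontal axis); bars are standard errors from limma's fit of 36 arrays and the black diamond is MNN1. MNN1 is the lowest of the 10 with every pesticide, and carbofuran is the pesticide with which 6 of the other 9 genes lie at 0.19 or above.

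OCH1, whose product starts the outer chain, was lower with 5 pesticides and higher with carbofuran. With diuron it had 1744, 1794 and 1754 units, against 2099, 2226 and 2368 units in the controls, a log2 change of -0.34 ± 0.11 (standard error). The groups did not overlap, but when control array 2 or 3, or any of the 3 IC20 arrays, was left out, the change was -0.35 to -0.29 and not called, leaving 1 member called. With carbofuran it had 2265, 2421 and 2895 units, against 1920, 2258 and 2178 units, without overlap, and the change of 0.25 was not called. This carbofuran change was called after quantile normalization or median centring, with the replicate number as a block and under array weights. It was also called without control array 2, without IC20 array 1 or without the 2 arrays farthest from their groups. Against the 18 controls as 1 group the OCH1 change was -0.32 and not called with diuron, -0.47 and called with S-metolachlor, and with pyrimethanil it turned to 0.06 in place of -0.20.

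VAN1 and MNN9 encode the partners of M-Pol I, which begins the backbone. VAN1 had 2667, 2584 and 2757 units with carbofuran, against 2149, 2397 and 2085 units in the controls, a called change of 0.27 ± 0.07. With S-metolachlor it had 1744, 1820 and 1968 units, against 2152, 2246 and 2183 units, a called change of -0.25 ± 0.07, which was lost (-0.21) without IC20 array 1. Neither pair of groups overlapped, and the direction was opposite between these pesticides. With pyrimethanil the VAN1 change was -0.04, 0.02 after quantile normalization or median centring and 0.05 against the 18 controls as 1 group.

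MNN9 was lower with all 6 pesticides, by log2 changes from -0.25 with carbofuran to -0.05 with alachlor. With carbofuran it had 4505, 4509 and 4151 units, against 5092, 5482 and 5107 units in the controls, which was the one call (-0.25 ± 0.07). Against all 18 controls as 1 group this change was 0.07 and not called. With pyrimethanil MNN9 had 3325, 3168 and 3221 units, against 4026, 3440 and 3553 units, and its change of -0.18 was called only with the replicate number as a block, under array weights, with the 18 controls as 1 group (-0.37) or without control array 2 (-0.22).

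MNN10, MNN11 and HOC1 encode parts of M-Pol II, which extends the backbone together with Mnn9 and Anp1. MNN10 had 4865, 4766 and 3791 units with carbofuran, against 5534, 5533 and 5407 units in the controls, a called change of -0.30 ± 0.09, lost without IC20 array 3 (-0.19), in the 6 carbofuran arrays alone and against the 18 controls as 1 group (-0.07). Its other 5 changes lay between -0.11 and -0.02, and the one nearest 0, with S-metolachlor, was 0.01 after median centring. MNN11 had 4880, 5255 and 5519 units with carbofuran, against 4336, 4879 and 4488 units, a change of 0.19 that was not called although the groups did not overlap. This change was called after quantile normalization or median centring, with the replicate number as a block and under array weights. It was also called without control array 2, without IC20 array 1 or without the 2 arrays farthest from their groups. Against the 18 controls as 1 group this change was -0.23, and those with alachlor, diuron and S-metolachlor turned to 0.09, 0.14 and 0.01. HOC1 had changes from -0.08 to 0.16 and no call, and its pyrimethanil change of -0.03 was 0.03 after quantile normalization or median centring. Against the 18 controls as 1 group its changes with alachlor and S-metolachlor turned to -0.14 and 0.04.

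**Figure D4:**
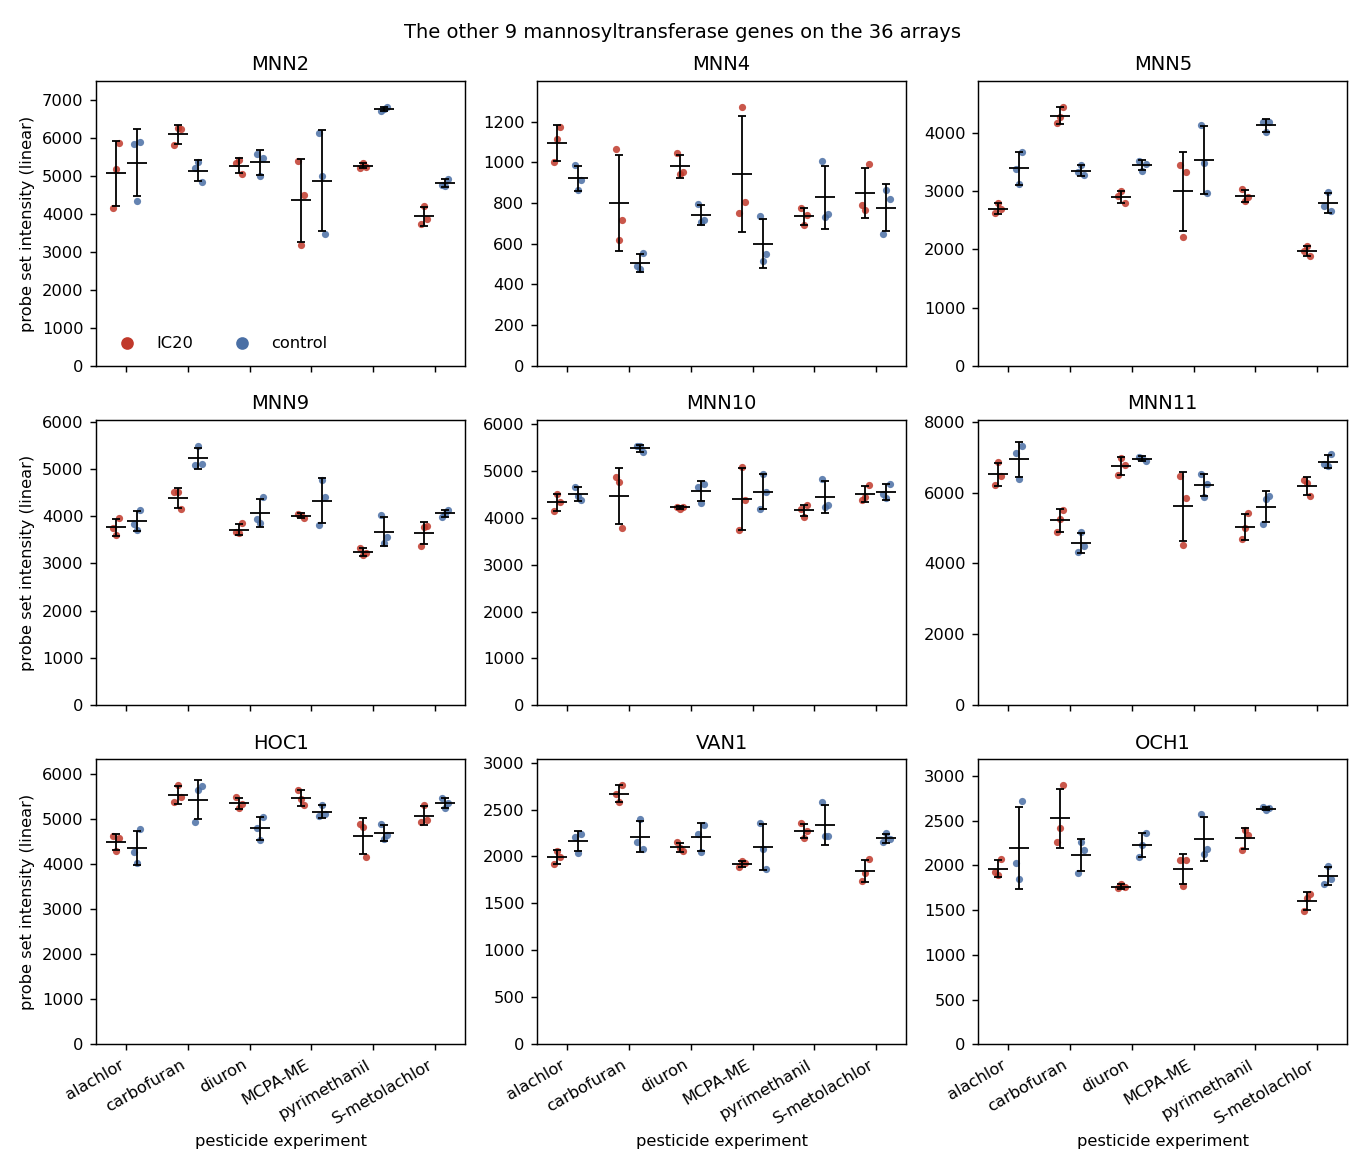
Probe set intensity (linear, vertical axes from 0) of the other 9 genes on each of the 36 arrays by pesticide experiment (horizontal axes), IC20 in red and control in blue, with the mean ± SD of 3 arrays in black. IC20 and control groups overlap in some experiments and not in others. MNN4 and MNN5 move apart in opposite directions with diuron, with neither change called. The carbofuran controls of MNN9, MNN10 and MNN11 lie outside the other controls.

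MNN2 and MNN5 encode the alpha-1,2-mannosyltransferases that add the first and the next mannose of each branch. MNN5 had 4166, 4283 and 4449 units with carbofuran, against 3328, 3454 and 3277 units in the controls, a called change of 0.36 ± 0.11. With pyrimethanil it had 3033, 2825 and 2901 units, against 4195, 4010 and 4192 units, a called change of -0.50 ± 0.11. With S-metolachlor it had 1981, 2053 and 1892 units, against 2751, 2984 and 2657 units, also a called change of -0.50 ± 0.11. The groups did not overlap in any of the 3, and MNN5 spanned 0.86 on the log2 scale between pesticides, the widest span of the 10 genes. Against the 18 controls as 1 group the MNN5 call with pyrimethanil was lost (-0.23), the S-metolachlor change was -0.79, and the alachlor change was -0.34 and called.

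MNN2 was not called with any pesticide, though its arrays separated in the same 3 experiments and in the same directions. With pyrimethanil it had 5225, 5355 and 5239 units, against 6722, 6779 and 6821 units in the controls, a change of -0.36 ± 0.16. With carbofuran it had 5809, 6257 and 6243 units, against 5209, 5370 and 4843 units (0.25 ± 0.16). In the 6 arrays of each pesticide alone these were called, as was the S-metolachlor change of -0.29. Against the 18 controls as 1 group the MNN2 change was -0.01 with pyrimethanil, 0.20 with carbofuran and -0.43 with S-metolachlor, of which the last was called. Within groups MNN2 had a residual SD of 0.198 on the log2 scale over all arrays, and MCPA-ME IC20 array 2 held its lowest value, 3196 units.

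MNN4, needed for mannosylphosphate transfer, was higher with 5 pesticides. With MCPA-ME it had 749.4, 1272 and 805.5 units, against 736.9, 513.9 and 551.6 units in the controls, a called change of 0.63 ± 0.18. With carbofuran it had 1066, 618.4 and 717.7 units, against 489, 474 and 553.9 units, also a called change of 0.63 ± 0.18. In both the highest value came from the array farthest from its group. Without carbofuran IC20 array 1 the change was 0.40, without MCPA-ME IC20 array 2 it was 0.39 and without MCPA-ME control array 2 it was 0.52, and none of these was called. Against the 18 controls as 1 group the change was 0.13 with carbofuran and 0.37 with MCPA-ME, neither called, and neither call held in the 6 arrays of its pesticide alone. With diuron it had 1045, 942.7 and 953.2 units, against 796.2, 706.3 and 719 units, and with alachlor 999.3, 1115 and 1173 units, against 986.7, 861.6 and 914.9 units. Neither pair overlapped, and the changes of 0.41 and 0.25 were not called. The diuron change was called in the 6 diuron arrays alone, under array weights (0.45) and without the 2 arrays farthest from their groups, and the alachlor change was 0.62 and called against the 18 controls as 1 group. The pyrimethanil change of -0.16 turned to 0.05 against those controls. With MCPA-ME the count of called members was 4 without control array 3, where MNN5 (-0.37) and VAN1 (-0.20) joined, and 4 without IC20 array 1, where MNN5 (-0.36) and MNN11 (-0.27) joined, while it was 1 without control array 2 or IC20 array 2.

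Against the carbofuran controls, MNN2, MNN4, MNN5, MNN11, VAN1 and OCH1 were higher on all 3 carbofuran IC20 arrays than on every control array. MNN1, MNN9 and MNN10 were lower on all 3, so that 9 of the 10 genes did not overlap, beside 49.8% of all genes. The a-type markers moved in the same experiment: 4 of 5 were called lower, beside 23.7% of all genes. The summed intensity of the 5 was 42923 to 47109 on the carbofuran IC20 arrays, against 63977 to 66400 on the controls. BAR1, the protease gene that degrades alpha-factor, averaged 1150 ± 151 units at the IC20 and 4170 ± 167 units in controls. Markers were also called with other pesticides: MFA1 with MCPA-ME (0.22), pyrimethanil (0.17) and S-metolachlor (-0.14), and BAR1 with S-metolachlor (-0.33). The alpha-type gene STE3 was called higher with alachlor (0.81), diuron (1.56), MCPA-ME (0.78) and S-metolachlor (0.87). The part of these marker shifts in the mannosyltransferase values was not tested.

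Levels among the 6 control groups were not used to list the genes and could be tested. The pattern for which MNN1 was proposed does draw on its control values. Of the 10 genes, 8 differed among control groups by limma's F test, beside 78.9% of all genes, so the share was near that of any gene. MNN11 had the lowest adjusted p (3.8e-06), followed by MNN9 (1.22e-05) and HOC1 (0.000523). MNN2 (adjusted p = 0.0502) and VAN1 (adjusted p = 0.454) were not called. For MNN1 the control means spanned 0.38 on the log2 scale (adjusted p = 0.0209 by the F test). The median span over all genes was 0.57, and for MNN1 this comparison is a description.

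The carbofuran controls stood outside the other 15 control arrays for 3 of the 10 genes, beside 20.5% of all genes. MNN9 had 5092 to 5482 units there, against 3440 to 4755 units on the others. MNN10 had 5407 to 5534 units, against 4201 to 4942 units. MNN11 had 4336 to 4879 units, against 5108 to 7311 units. Each control group belongs to 1 experiment, so control level and experiment cannot be told apart.

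Deviations of single arrays from their group means, also independent of the choice, were correlated between genes over the 36 arrays as a description. The points share array, normalization and culture. Over the 45 pairs Pearson's r had a median of 0.22 and ran from -0.65 to 0.84. The closest pair was MNN2 with MNN5 at 0.84 (0.81 without the 2 arrays farthest from their groups), and MNN11 had an r of 0.61 with MNN2 and 0.67 with MNN5 (0.49 each without those arrays). MNN10 ran against MNN11 at -0.65 (-0.51 without them). MNN5 and MNN11 lie close on 1 chromosome with 2 protein-coding genes between them in the RefSeq R64 assembly. MNN1 was nearest to MNN9 at 0.52, and its median r with the other 9 genes was 0.35, against 0.10 with all genes. The median r with the other members was higher for MNN2 (0.46), OCH1 (0.41) and MNN5 (0.40). It was 0.35 for VAN1 and between -0.06 (MNN4) and 0.21 (HOC1) for the rest.

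The genes most like MNN1 were sought over the 36 arrays after each experiment's control mean was subtracted, among 5083 genes. They were YBL029W (r = 0.87), YDR124W (0.86), BIO4 (0.84), a biotin synthesis gene, PDR12 (0.82), a pump for weak acid anions, and RAD16 (0.81), a nucleotide excision repair gene. Their changes were lower with all 6 pesticides, from -3.39 to -0.86 for YBL029W and from -0.98 to -0.26 for RAD16. The search used the same IC20 and control differences for which MNN1 was chosen, so this shared direction is a description and tests nothing. When group means were also removed, r with MNN1 was 0.64 for RAD16 and 0.30 for PDR12 and between 0 and 0.13 for the other 3. Among the other mannan genes r with MNN1 ran from -0.49 for MNN4 to 0.67 for MNN9. Among 5075 genes the mean of the other 9 was most like NEW1 (0.89), SFB3 (0.89), TMA108 (0.88), PRS1 (0.88) and AMD1 (0.88), of which SFB3 encodes a cargo adaptor of vesicles leaving the endoplasmic reticulum and NEW1 a translation factor.

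Around the 10 genes, 75 other genes of 7 lists were measured: further Golgi mannosyltransferases, GDP-mannose supply, assembly of the lipid-linked oligosaccharide, its transfer and trimming, protein O-mannosylation, Golgi retention and ion supply, and genes that use the late G1 factor SBF, as MNN1 does in published work on the cell cycle. Called were 4 with alachlor (1 higher, 3 lower), 26 with carbofuran (20 and 6), 1 with diuron (lower), 7 with MCPA-ME (all higher), 13 with pyrimethanil (1 higher, 12 lower) and 11 with S-metolachlor (5 and 6). As shares of 75 these are 5.33% with alachlor (5.03% of all genes), 34.7% with carbofuran (42.2%), 1.33% with diuron (14.4%), 9.33% with MCPA-ME (18.6%), 17.3% with pyrimethanil (16.1%) and 14.7% with S-metolachlor (24.4%). None of the 75 was called lower with more than 2 pesticides, and those called lower with 2 were ALG13, KTR2, KTR5, PMT2 and STT3. Of all genes, 5 (0.0918%) were called lower with all 6 pesticides. The share called lower with more than 2 was not counted, so nothing is read from this. With alachlor, diuron and MCPA-ME no gene of the 75 had a lower change than MNN1, beside 0.551%, 1.91% and 2.72% of all genes. With carbofuran 2 did (13% of all genes), with pyrimethanil 8 (4.44%) and with S-metolachlor 2 (4.11%). MNN1 was chosen for its low changes, so these counts are a description.

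Of 13 further Golgi mannosyltransferases, which act on N-linked and O-linked chains, 1 fell with alachlor, 1 with diuron and 2 each with pyrimethanil and S-metolachlor, 2 rose with MCPA-ME, and with carbofuran 5 rose and 2 fell. Their median change lay between -0.13 and 0.09. Of all genes, 1.5% were called lower with alachlor, 23.7% with carbofuran, 5.84% with diuron, 8.61% with MCPA-ME, 9.71% with pyrimethanil and 14.4% with S-metolachlor. Called higher were 3.52%, 18.4%, 8.52%, 9.97%, 6.39% and 10.1% in the same order. These shares stand beside the counts of every list. The lists were chosen with earlier results of these data known, so nothing is read from the counts. KTR2 fell to 437 ± 4.68 units with alachlor, against 641 ± 26.8 units in controls (log2 change -0.55, limma adjusted p = 0.00106), and to 337 ± 43.4 units with S-metolachlor, against 590 ± 45 units (-0.81, adjusted p = 2.4e-06). ANP1, whose product belongs to M-Pol II, fell with pyrimethanil (-0.69, adjusted p = 0.00533). KTR6, which encodes the mannosylphosphate transferase that works with Mnn4, fell with carbofuran (-0.41, adjusted p = 0.000291) and rose with MCPA-ME (0.26, adjusted p = 0.0234), where its groups overlapped. MNT4, a member of the MNN1 family, rose with carbofuran (0.62, adjusted p = 0.00455). Its relatives MNT2 and MNT3 had changes of -0.13 to 0.14 and -0.22 to 0.30, and of these only MNT3 with carbofuran (0.30, adjusted p = 0.0269) was called.

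GDP-mannose, the donor of all these enzymes, is made by Pmi40, Sec53 and Psa1 and carried into the Golgi by Vrg4. Of the 6 supply genes, PSA1 fell with alachlor (-0.15, adjusted p = 0.00542), PMI40 and SEC53 fell with S-metolachlor (-0.36 and -0.15), and SEC53 and YND1 rose with carbofuran (0.13 and 0.33). No supply gene was called with diuron, MCPA-ME or pyrimethanil by limma, where 0, 1 and 1 had an unadjusted p under 0.05. VRG4 was not called with any pesticide and its changes lay between -0.05 and 0.11.

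Of 17 genes that assemble the lipid-linked oligosaccharide, 4 rose and 2 fell with carbofuran, 2 fell with pyrimethanil, and at most 1 was called with each other pesticide. Of 12 genes of transfer and trimming, 3 rose with carbofuran, 3 with MCPA-ME and 1 each with alachlor and S-metolachlor, while 2 fell with pyrimethanil and 1 with S-metolachlor. STT3, the catalytic subunit of oligosaccharyltransferase, fell to 2250 ± 120 units with pyrimethanil, against 3940 ± 816 units in controls (-0.79, adjusted p = 3.41e-05), and fell with S-metolachlor (-0.36, adjusted p = 0.0288). CWH41, glucosidase I, rose with alachlor, MCPA-ME and S-metolachlor, by 0.36, 0.43 and 0.30. Of 7 O-mannosyltransferase genes 3 fell with pyrimethanil, PMT1 (-0.61), PMT2 (-0.57) and PMT5 (-0.41), beside 9.71% of all genes called lower. The list median there was -0.41 against -0.04 for all genes, a difference that was not tested. PMT2 also fell with S-metolachlor (-0.45), and PMT3 rose with carbofuran (0.61).

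Of 11 genes for retention in the Golgi and its ion supply 4 rose with carbofuran, among them COG2 (0.40) and PMR1 (0.35), the calcium and manganese pump, 2 rose with S-metolachlor, COG4 (0.41) and COG7 (0.46), 1 each rose with MCPA-ME and pyrimethanil, and none fell. Of 9 late G1 genes none was called with alachlor, diuron or MCPA-ME by limma, and 0 had an unadjusted p under 0.05 there. CLN2 (-0.69), CLN1 (-0.36) and FKS1 (-0.28) fell with pyrimethanil, PCL1 (-1.25) and SWI4 (-0.99) fell and KRE6 (0.61) rose with carbofuran, and PCL1 rose with S-metolachlor (0.88). Of the 75 genes of all lists, 3 had changes below 0 with all 6 pesticides. These were CLN2 (-0.69 to -0.03), SVS1 (-0.78 to -0.04) and the Golgi retention gene ERD1 (-0.40 to -0.02). No SVS1 or ERD1 change was called, and the share of all genes with changes below 0 with all 6 pesticides was not counted.

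**Figure D5:**
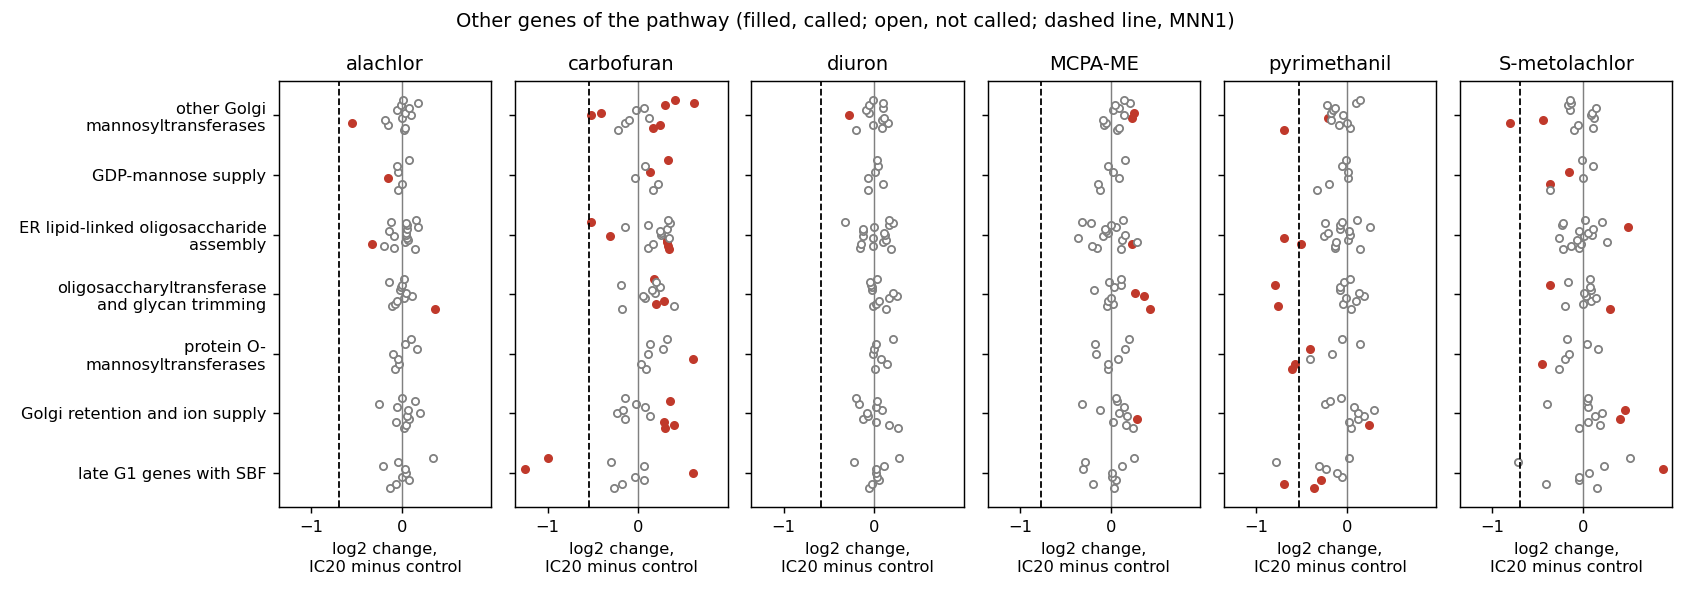
Log2 change, IC20 minus control (horizontal axes), of 75 other genes in 7 lists (rows) with each pesticide (panels); filled points were called by limma, open points were not, and the dashed line marks the MNN1 change. No point lies left of the MNN1 line with alachlor, diuron or MCPA-ME, and 8 do with pyrimethanil. MNN1 was chosen for its low changes, so this is a description.

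The counts over the 75 genes shifted when single arrays were left out. With alachlor the count was 2 without control array 2 or IC20 array 3. With carbofuran, leaving out IC20 array 2 gave 16 and IC20 array 3 gave 12, while leaving out control array 1 gave 14 and control array 3 gave 16. With diuron it was 0 when IC20 array 2 or control array 3 was left out, 2 when IC20 array 3 was, and 3 with the replicate number as a block. With MCPA-ME, leaving out IC20 array 2 or control array 3 gave 13, control array 2 gave 4 and IC20 array 3 gave 1. For pyrimethanil the count became 8 if IC20 array 1 was dropped, 6 if IC20 array 2 was, 5 if control array 1 was and 7 if control array 3 was. With S-metolachlor it was 7 without control array 1 or 3 and 6 without IC20 array 3.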

How the data were processed

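The authors deposited probe set intensities on a linear scale from Affymetrix Yeast Genome 2.0 arrays, made with Affymetrix Expression Console per the submitters' processing notes. The sources used here do not give its version, the way probes were summarised or the scaling between arrays. Of 5716 probe sets, 5498 had a single gene in the supplied annotation and 218 had none. The probe set with the highest mean over 36 arrays was kept per gene, giving 5449 genes. Values under 32 were set to 32 before log2 was taken. R 4.3.3 with limma 3.58.1 fitted 1 mean per group to the 36 arrays, which left 24 residual degrees of freedom. Each IC20 group was set against its own control, with Benjamini-Hochberg adjustment across the 5449 genes. The script was tested on simulated data. The number of arrays limits the precision.

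The members and gene lists were chosen with earlier results of these data known. Named are all 10 members, of each list up to 3 called genes per pesticide and direction with the largest change, and the 5 genes with the highest Pearson r with MNN1 or with the mean of the other 9 (mean of at least 100 units). ERD1, MNT2, VRG4 and SVS1 were named after their values were seen. Of 77 listed pathway genes 75 were measured. The main fit did not pair arrays of equal replicate number. Deviations of such pairs correlated above 0.1 in every pair only for diuron (0.352 to 0.402) and pyrimethanil (0.173 to 0.38). Alternatives were another normalization, floor, gene filter, probe set choice, control, threshold or weighting, the block, and leaving out each array. Leaving out the 2 arrays farthest from their groups was chosen after seeing the data.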

Additional observations from a re-analysis of the deposited data

Results flagged for a closer look

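For 5 of the 10 genes all IC20 arrays lay above all control arrays with carbofuran and below them with at least 1 other pesticide; these differences between pesticides were not tested. MNN2 changed by 0.25 with carbofuran on the log2 scale, by -0.36 with pyrimethanil and by -0.29 with S-metolachlor, none of them called by limma. MNN5 had 0.36 with carbofuran, -0.32 with alachlor, -0.25 with diuron and -0.50 with both pyrimethanil and S-metolachlor. MNN11 had 0.19 with carbofuran and -0.15 with S-metolachlor. VAN1 had 0.27 with carbofuran and -0.25 with S-metolachlor. OCH1 had 0.25 with carbofuran, -0.34 with diuron, -0.22 with MCPA-ME, -0.20 with pyrimethanil and -0.23 with S-metolachlor. Carbofuran IC20 and control arrays did not overlap, in either direction, for 49.8% of all genes. How many of all genes separated above with carbofuran and below with another pesticide was not counted. Nothing is read from the 5 of 10. Against all 18 controls as 1 group MNN11 was -0.23 with carbofuran and 0.01 with S-metolachlor, OCH1 was 0.06 with pyrimethanil and MNN2 was -0.01 with pyrimethanil.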

How the results depend on the processing

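A change of normalization, floor, gene filter or probe set choice moved 1 of the counts of called genes by over 1.5 times: after quantile normalization 2 members were called with alachlor. In the 6 arrays of each pesticide alone, members called were 2 with alachlor, 4 with diuron, 0 with MCPA-ME, 4 with pyrimethanil and 6 with S-metolachlor. Other pathway genes called were then 2 with alachlor, 12 with carbofuran, 2 with diuron, 0 with MCPA-ME and 21 with S-metolachlor, and the share of all genes was 8.88% with alachlor, 24.5% with carbofuran, 1.16% with MCPA-ME and 37.3% with S-metolachlor. With all 18 controls as 1 group, members called were 3 with alachlor, 3 with carbofuran, 1 with diuron and 5 with S-metolachlor. Other pathway genes were 11 with alachlor, 16 with carbofuran, 20 with pyrimethanil and 22 with S-metolachlor, and the share of all genes was 18.3% with alachlor, 6.83% with diuron and 25.3% with pyrimethanil. In that setting the MNN1 change was -0.68 with carbofuran, -0.75 with diuron and -0.55 with MCPA-ME, its shift against the other 9 genes was -0.80, -0.72 and -0.47 with the same pesticides, and 10 of the 60 member changes turned sign, none of them called: MNN9 (0.07) and MNN11 (-0.23) with carbofuran, MNN11 (0.09) and HOC1 (-0.14) with alachlor, MNN11 (0.14) with diuron, MNN4 (0.05), VAN1 (0.05) and OCH1 (0.06) with pyrimethanil, and MNN11 (0.01) and HOC1 (0.04) with S-metolachlor. The cause of these differences was not tested.

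Array weights gave 3 members with alachlor, 5 with diuron, 5 with pyrimethanil and 7 with S-metolachlor. Other pathway genes were 7 with alachlor, 45 with carbofuran, 15 with diuron, 26 with MCPA-ME, 31 with pyrimethanil and 31 with S-metolachlor, and shares of all genes were 17.9% with alachlor, 36.9% with diuron, 36% with MCPA-ME, 38% with pyrimethanil and 50.1% with S-metolachlor. At an adjusted p under 0.01, 1 member was called with diuron and 1 with MCPA-ME. Other pathway genes were 2 with alachlor, 13 with carbofuran, 2 with MCPA-ME, 5 with pyrimethanil and 6 with S-metolachlor, and shares were 2.77% with alachlor, 8.46% with diuron, 10.7% with MCPA-ME, 6.97% with pyrimethanil and 13% with S-metolachlor. Without the 2 arrays farthest from their groups, chosen after seeing the data, members called were 2 with alachlor and 4 with diuron. Other pathway genes were 3 with diuron, 15 with MCPA-ME and 17 with S-metolachlor, and shares were 8.31% with alachlor and 30.2% with MCPA-ME.

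The replicate number was fitted as a block for every pesticide, though each pair correlated above 0.1 only for diuron and pyrimethanil. In that fit 3 other pathway genes were called with diuron, and MNN9 was called with pyrimethanil. For S-metolachlor, where not every pair correlated above 0.1, the block gave 5 members and 17 other pathway genes.

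Leaving out each array in turn, members called ranged from 1 to 1 with alachlor, 5 to 8 with carbofuran, 1 to 2 with diuron, 1 to 4 with MCPA-ME, 2 to 3 with pyrimethanil and 2 to 3 with S-metolachlor. Other pathway genes ranged from 2 to 4, 12 to 33, 0 to 2, 1 to 13, 5 to 11 and 6 to 9 in the same order. The MNN1 change ranged from -0.78 to -0.63 with alachlor, -0.60 to -0.48 with carbofuran, -0.62 to -0.53 with diuron, -0.85 to -0.67 with MCPA-ME, -0.61 to -0.49 with pyrimethanil and -0.76 to -0.58 with S-metolachlor. Its shift against the other 9 ranged from -0.66 to -0.61, -0.75 to -0.66, -0.57 to -0.49, -0.83 to -0.63, -0.40 to -0.29 and -0.58 to -0.44. The share of all genes fell to 2.88% without alachlor control array 2, 8.66% without diuron control array 3, 7.1% without pyrimethanil control array 1, 9.12% without pyrimethanil IC20 array 2 and 15.1% without S-metolachlor IC20 array 3. Members that differed among control groups ranged from 7 to 9. With 3 arrays per group, small changes of these genes are not resolved.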
